A study of Mus musculus with 37 samples.

Results

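The 9 genes described here belong to the hormone systems that set kidney blood flow and salt balance, and were followed in podocyte ribosome profiles of diabetic mice. They were taken by symbol from the gene-name column of the deposited count table, in which each symbol was found once, and are 9 of its 32108 genes. Agt encodes angiotensinogen, Ren1 renin, Ace angiotensin-converting enzyme and Agtr1a the type 1a angiotensin II receptor. Mme encodes neprilysin, Npr1 and Npr3 encode natriuretic peptide receptors, and Nr3c1 and Nr3c2 encode the glucocorticoid and mineralocorticoid receptors.

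Podocytes are epithelial cells whose foot processes enclose the capillaries of the glomerulus, the filter of the kidney. Translating ribosome affinity purification (TRAP) pulls down tagged ribosomes of a chosen cell type with the RNA bound to them, here podocytes. In the model of type 2 diabetes, eNOS-/- db/db mice, which lack endothelial nitric oxide synthase and carry a mutation of the leptin receptor, were set against eNOS-/- mice of the same age, so the loss of eNOS is shared by both groups. There were 5 diabetic and 5 control TRAP libraries at 3 months of age, and 3 diabetic and 4 control libraries at 6 months. In the model of type 1 diabetes, mice given streptozotocin (STZ), which kills the insulin-producing cells, were set against untreated mice. Here 5 diabetic and 4 control libraries came from mice at 3 weeks of STZ (3 months of age), and 5 diabetic and 5 control libraries from mice at 24 weeks (8 months of age). The labels give the strain as C57BL/6 and give no further genotype for this model, in which STZ and the diabetes it brings on cannot be told apart. A single library of total RNA came from whole kidney of an eNOS-/- mouse at 3 months.

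The renin-angiotensin system works as a chain. Renin cuts angiotensinogen, angiotensin-converting enzyme trims the product to angiotensin II, and the type 1 receptor answers it with constriction of vessels, salt retention and, in podocytes, changes of the actin skeleton. Natriuretic peptides act against it: Npr1 is a guanylate cyclase that makes cGMP when it binds atrial or B-type peptide, Npr3 binds the same peptides and removes them from the circulation, and neprilysin degrades natriuretic peptides and angiotensins at the cell surface. The corticoid receptors are transcription factors that bind cortisol-like steroids and aldosterone.

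The 36 TRAP libraries held 6702120 to 37786025 counts and the kidney library 28033680. Every pair of libraries of a group differed by more than sampling noise. Summed levels of 15 podocyte markers, among them Nphs1, Wt1 and Podxl, were 18330 to 33320 CPM (normalised read counts scaled to library size, by TMM over all TRAP libraries) in 3-month eNOS-/- db/db libraries and 28270 to 43170 CPM in eNOS-/- libraries of that age. At 6 months they were 4401 to 19040 CPM in the diabetic and 30570 to 35710 CPM in the control libraries. Summed levels of 18 proximal tubule markers, which show RNA of cells other than podocytes, were lower in every diabetic library than in any control library of its age in the type 2 model and at 3 weeks of STZ, and overlapped at 24 weeks. None of these podocyte or tubule markers was at 0 in all libraries of a group. In such bulk libraries, fewer cells of a type and less RNA per cell cannot be told apart.

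The comparison with whole kidney shows where the 9 genes stand in the podocyte profile. Npr3 and Npr1 were the ones enriched. On the length-scaled FPKM level, Npr3 averaged 82.86 ± 26.8 FPKM in the 5 TRAP libraries of 3-month eNOS-/- mice (SD, n = 5), against 2.456 FPKM in kidney, where the 95% Poisson interval of the count gave 2.241 to 2.687. Npr1 averaged 49.0 ± 13.4 FPKM in TRAP (SD, n = 5) and 2.797 FPKM in kidney (2.521 to 3.095). The ratios of mean CPM, here counts over library total without TMM and each with 0.5 added, were 32.8 for Npr3 and 16.9 for Npr1, so 2 of 9 genes were over 4-fold higher in TRAP, compared with 3.68% of 17198 genes with at least 30 counts over these 6 libraries. With 1 kidney library there is no test, and these intervals cover counting error only. The TRAP RNA is ribosome-bound and the kidney RNA is total, so cell type and RNA preparation cannot be told apart in these ratios.

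The angiotensin genes lay the other way. Agt averaged 6.572 ± 1.48 FPKM in TRAP (SD, n = 5) against 19.0 FPKM in kidney, a ratio of 0.355. The ratio was 0.470 for Ace and 0.492 for Agtr1a, and these 3 genes fell under a ratio of 0.5, as did 8.32% of all genes. Ren1 had a ratio of 0.590, and the kidney value lay above every TRAP library for all 4. For Mme (1.14), Nr3c1 (1.06) and Nr3c2 (0.919) the kidney value was within the span of the 5 TRAP libraries. Within the TRAP libraries of 3-month controls the order per length was thus Npr3, Npr1, then Nr3c1 at 20.23 ± 1.66 and Mme at 19.79 ± 4.76 FPKM, Ace at 15.7 ± 3.14 and Ren1 at 9.166 ± 1.01 FPKM. Agt, Agtr1a (5.18 ± 0.713 FPKM) and Nr3c2 (4.424 ± 0.593 FPKM) came last (SD, n = 5 each).

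**Figure D1:**
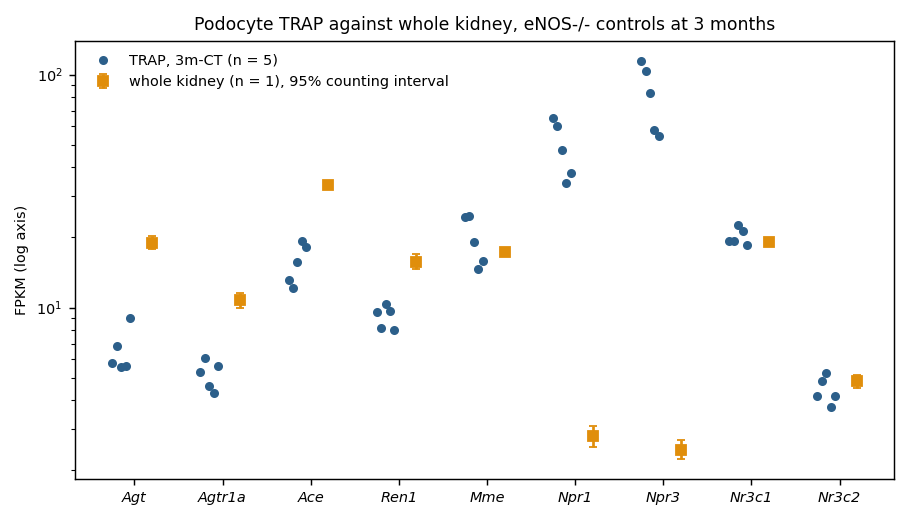
FPKM (log axis) of the 9 genes in the 5 podocyte TRAP libraries of 3-month eNOS-/- mice (circles) and in the single whole-kidney library (square, bar: 95% Poisson interval of the count). Npr1 and Npr3 lie above the kidney value in every TRAP library, and Agt, Agtr1a, Ace and Ren1 lie below it in every one.

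Depending on model and age, 0 to 5 of the 9 genes changed with diabetes. The question in each model and at each age was which differed between diabetic and control libraries, by edgeR's quasi-likelihood test with Benjamini-Hochberg adjustment over all genes at 0.05. In the type 2 model at 3 months, 2 genes fell (Ace and Npr1) and 0 rose, where 3.99% of the 17180 genes tested were called, 2.03% higher and 1.96% lower. At 6 months 4 fell (Ace, Mme, Npr1 and Npr3) and 1 rose (Agt), with 22.9% of all genes called, 11.2% higher and 11.7% lower. At 3 weeks of STZ, Agt rose and Ace fell, with 6.50% of 16279 genes called, 3.78% higher and 2.72% lower. At 24 weeks 0 of 9 were called, beside 0.897% of genes. An unadjusted p under 0.05 was found for 4, 5, 4 and 1 of the 9 genes in these comparisons, and for 16.2%, 36.9%, 20.8% and 10.7% of all genes. DESeq2 called 1 of 9 at 24 weeks, Agt. The median log2 fold change of the 9 genes was -0.21, -0.51, -0.21 and -0.32 in these 4 comparisons, in the order given, and that of all genes was 0.04, -0.01, 0.00 and -0.01.

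**Figure D2:**
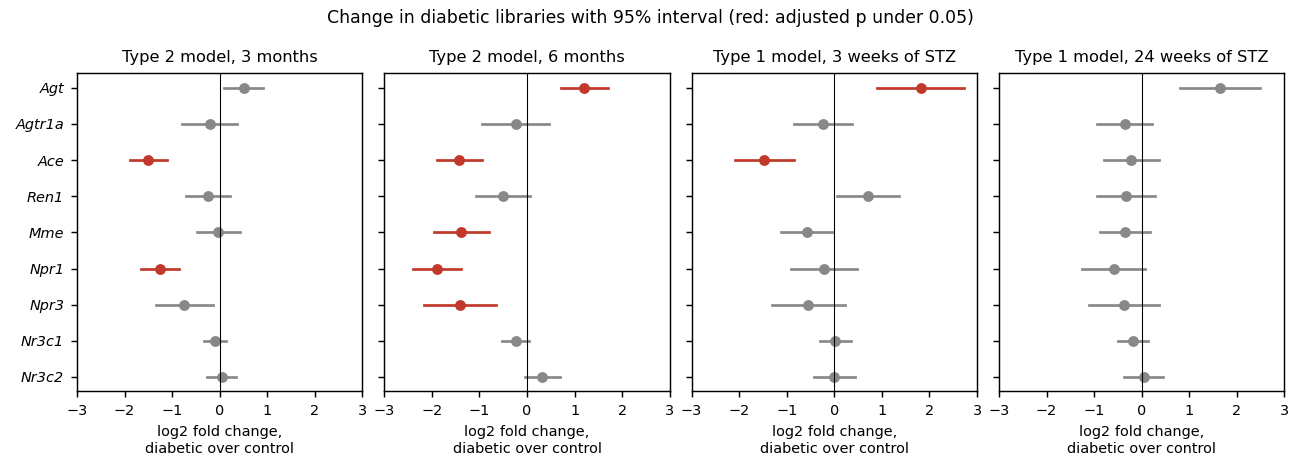
Log2 fold change, diabetic over control, of the 9 genes in the 4 comparisons, with 95% intervals (red: adjusted p under 0.05). Ace lies below 0 with its whole interval in 3 panels, and the intervals of Nr3c1 and Nr3c2 span 0 in all 4.

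Libraries did not overlap between the diabetic and control groups for 2 of 9 genes at 3 months in the type 2 model (6.76% of all genes), 5 of 9 at 6 months (29.6%), 3 of 9 at 3 weeks of STZ (8.19%) and 0 of 9 at 24 weeks (3.34%).

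**Figure D3:**
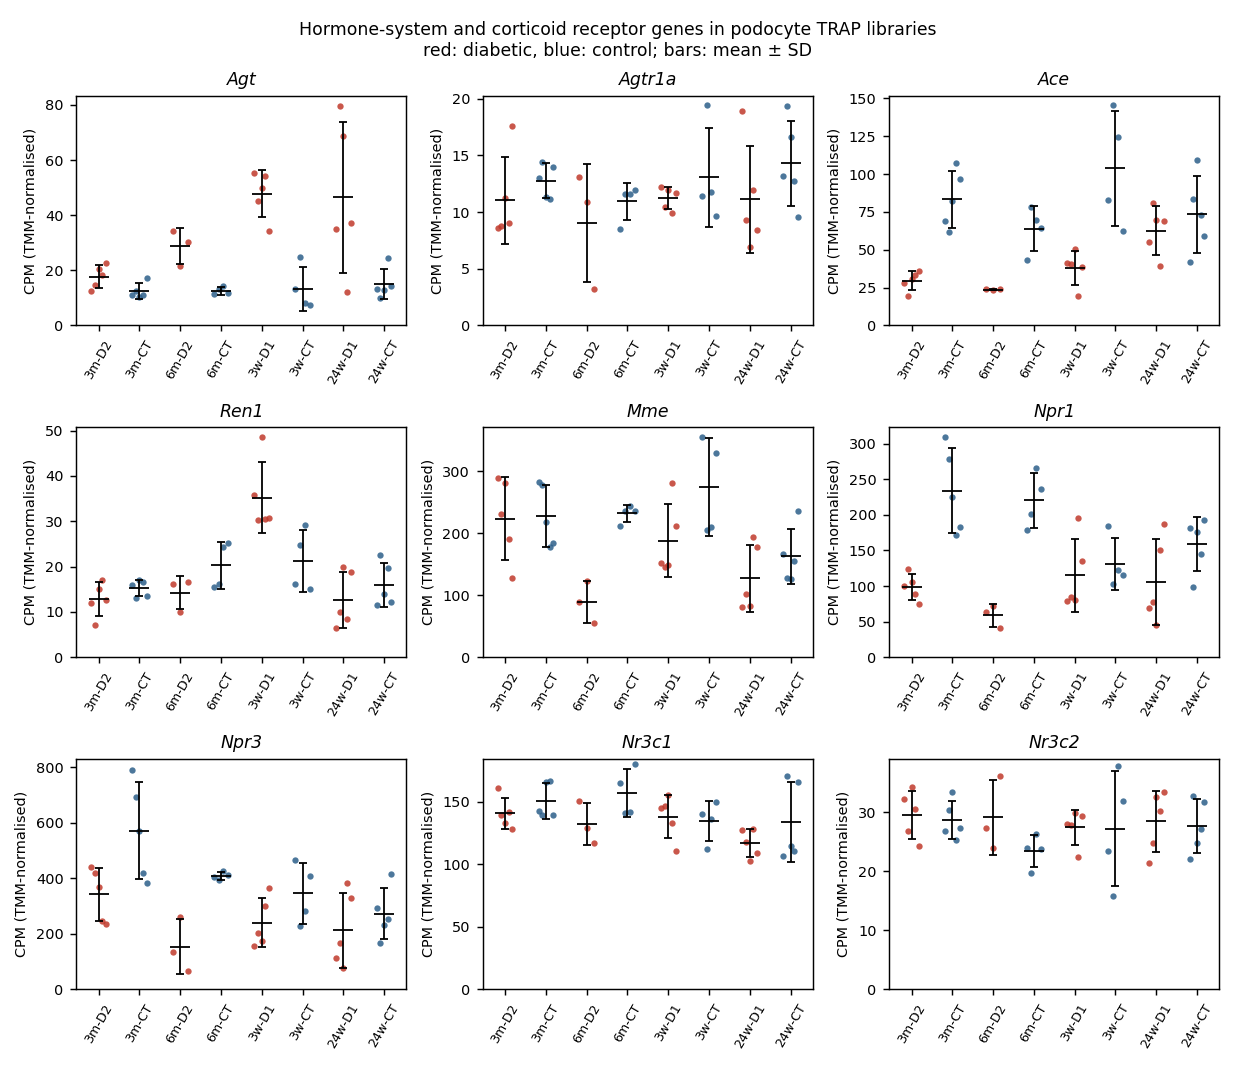
CPM of each gene in every TRAP library, diabetic (red) left of control (blue) for each age or time of STZ, with the mean ± SD of the group. Diabetic and control libraries are apart for Ace in the first 3 pairs of groups, and for Npr1 in the type 2 model.

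Npr1 fell at both ages in the type 2 model, and Npr3 at 6 months. Npr1 (chromosome 3, 90450591 to 90465866 on GRCm38, minus strand) stood at 99.61, 124.1, 105.1, 88.07 and 74.95 CPM in 3-month eNOS-/- db/db libraries, against 309.3, 278.6, 225.1, 171.7 and 183.4 CPM in eNOS-/- libraries. Every diabetic library lay below every control library. The log2 fold change was -1.25 ± 0.19 (SE; edgeR adjusted p = 0.000458).

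At 6 months Npr1 stood at 64.05, 72.03 and 41.02 CPM in eNOS-/- db/db libraries and at 178.6, 200.7, 265.4 and 236.2 CPM in eNOS-/- libraries. Again the groups were apart, with a log2 fold change of -1.89 ± 0.24 (SE; edgeR adjusted p = 9.92e-05). In the type 1 model Npr1 was not called. It averaged 114.8 ± 50.7 CPM at 3 weeks of STZ (SD, n = 5) and 131.2 ± 36.4 CPM in controls (n = 4), and the 95% interval of the log2 fold change was -0.91 to 0.48. The STZ libraries stood at 78.37, 84.68, 80.39, 195.1 and 135.4 CPM, against 184.6, 103.1, 122.0 and 115.2 CPM in controls. The first 3 lay below every control and the fourth above every one. In the same order, the podocyte marker sums with STZ were 12660, 14360, 12530, 28550 and 25240 CPM. At 24 weeks Npr1 averaged 105.8 ± 60.3 CPM with STZ and 158.6 ± 38.0 CPM in controls (SD, n = 5 each), with an interval of -1.25 to 0.07. Among the diabetic libraries at 24 weeks, 3 lay between 45.39 and 76.94 CPM and 2 at 150.6 and 187.5 CPM, inside the control range.

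Npr3 (chromosome 15, 11839896 to 11905674, minus strand), the clearance receptor, is the gene with the highest level of the 9. In 6-month eNOS-/- db/db libraries it stood at 134.1, 261.4 and 64.26 CPM, against 403.1, 393.9, 427.4 and 412.6 CPM in eNOS-/- libraries. The diabetic libraries differed 4-fold among themselves and all lay below the controls, which were nearly equal. The log2 fold change was -1.41 ± 0.36 (SE; edgeR adjusted p = 0.0103). At 3 months Npr3 was not called: it stood at 438.8, 418.5, 369.4, 245.3 and 234.2 CPM in diabetic and 791.8, 693.9, 571.8, 420.1 and 381.4 CPM in control libraries. These groups overlapped, with a log2 fold change of -0.74 (95% interval -1.35 to -0.14; edgeR adjusted p = 0.182). In the type 1 model the intervals were -1.32 to 0.23 at 3 weeks and -1.10 to 0.37 at 24 weeks.

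Both receptors moved with podocyte markers from library to library. Over the 36 TRAP libraries, on log2 CPM with each model's mean removed, the correlation with the mean of the 15 markers was 0.963 for Npr3 and 0.870 for Npr1, and that between the receptors was 0.871. These points share library, depth and group, and the values are descriptions. Of the 15 podocyte markers, 13 were called lower at 6 months and 1 at 3 months in the type 2 model. With the marker mean as a covariate, Npr1 at 3 months was still called (log2 fold change -1.01, edgeR adjusted p = 5.8e-05). At 6 months, where the markers of the groups did not overlap, Npr1 with that covariate was at -0.98 (edgeR adjusted p = 0.0769) and Npr3 at 0.14 (0.846).

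**Figure D4:**
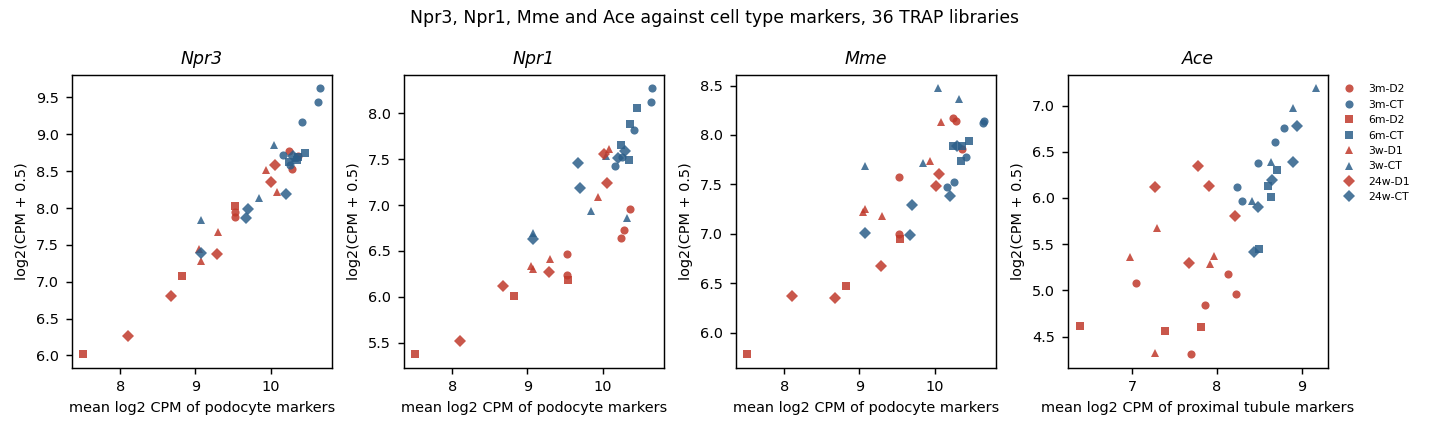
Log2(CPM + 0.5) of Npr3, Npr1 and Mme against the mean log2 CPM of 15 podocyte markers, and of Ace against that of 18 proximal tubule markers, one point per TRAP library (red: diabetic, blue: control; shape: age or time of STZ). Npr3 lies along a line with the markers, and the 3-month eNOS-/- db/db points of Npr1 lie below every eNOS-/- point of that age.

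Since both receptors were enriched in TRAP and moved together, their promoters are shown, as RefSeq gives them on GRCm38.p6 (300 bases, most of them before the start), with capitals marking the matches to the motifs searched on both strands.
Npr1: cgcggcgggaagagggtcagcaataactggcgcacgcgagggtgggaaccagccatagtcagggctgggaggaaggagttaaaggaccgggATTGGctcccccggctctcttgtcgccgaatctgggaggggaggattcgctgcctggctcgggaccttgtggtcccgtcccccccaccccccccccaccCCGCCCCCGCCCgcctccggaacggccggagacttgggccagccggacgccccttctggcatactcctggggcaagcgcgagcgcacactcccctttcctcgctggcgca
Npr3: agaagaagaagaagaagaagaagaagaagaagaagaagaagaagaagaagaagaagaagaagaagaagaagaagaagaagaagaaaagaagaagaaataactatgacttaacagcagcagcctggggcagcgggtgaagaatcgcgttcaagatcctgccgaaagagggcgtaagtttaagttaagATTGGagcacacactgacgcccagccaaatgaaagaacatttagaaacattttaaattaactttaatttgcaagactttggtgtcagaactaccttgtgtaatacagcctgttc
The Npr1 promoter (chr3:90465817-90466116, minus strand) held 2 GC boxes (GGGCGG, read on the opposite strand, in 1 stretch) and 1 CCAAT box on the opposite strand. The Npr3 promoter (chr15:11907322-11907621, minus strand), which lies upstream of the gene's place in the deposited table, held 1 CCAAT box on the opposite strand. Of 32851 promoters of this length, 35.7% held a GC box and 37.4% a CCAAT box. Neither held a TATA box (TATAAA, 13.6% of promoters), an E box (CACGTG, 7.15%) or the palindromic glucocorticoid response element, AGNACA and TGTNCT with any 3 bases between (0.0639%).

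Ace and Mme are cell-surface peptidases, and Ace was the gene called most often. Ace (chromosome 11, 105967945 to 105989964, plus strand) stood at 28.29, 19.35, 30.7, 33.41 and 35.66 CPM in 3-month eNOS-/- db/db libraries, against 68.86, 62.02, 82.46, 107.3 and 96.92 CPM in eNOS-/- libraries. At 6 months it stood at 23.88, 23.06 and 24.0 CPM in diabetic libraries and 43.16, 78.26, 69.59 and 64.11 CPM in controls. The groups were apart at both ages, and the 3 diabetic libraries of 6 months were nearly equal in Ace. In the same order, their podocyte marker sums were 11170, 19040 and 4401 CPM, and their proximal tubule marker sums 8693, 5990 and 3827 CPM. The log2 fold change was -1.50 ± 0.18 at 3 months (SE; edgeR adjusted p = 5.12e-05) and -1.42 ± 0.23 at 6 months (0.000457).

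With 3 weeks of STZ, Ace stood at 40.93, 40.48, 50.54, 19.46 and 38.66 CPM, against 83.02, 145.6, 124.7 and 62.26 CPM in untreated mice. The groups were apart again (log2 fold change -1.47 ± 0.30 SE, edgeR adjusted p = 0.00477). At 24 weeks it stood at 55.42, 80.66, 69.49, 38.92 and 68.91 CPM with STZ and 42.15, 83.22, 109.3, 72.68 and 59.14 CPM without. The ranges overlapped, with 2 control libraries above every diabetic one and 1 diabetic library below every control, and the 95% interval of the log2 fold change was -0.80 to 0.36. The later difference minus the earlier one was 1.25 (interval 0.40 to 2.09) with an unadjusted p of 0.00564, and it was not called (edgeR adjusted p = 0.509).

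Ace is also made in the brush border of the proximal tubule, and its level moved with the 18 tubule markers (correlation 0.740 over 36 libraries, as above). The summed tubule markers were 4253 to 10240 CPM in diabetic and 10980 to 16160 CPM in control libraries at 3 months, and 3827 to 8693 CPM against 12170 to 14950 CPM at 6 months. At 3 weeks they were 6164 to 10770 CPM with STZ and 13110 to 21170 CPM without. Of the 18 markers, 5 fell at 3 months, 11 at 6 months, 12 at 3 weeks and 2 at 24 weeks, and 0 rose. With their mean as a covariate, Ace was still called at 3 months in the type 2 model (-1.37, edgeR adjusted p = 0.00237), but not at 6 months (-1.17, 0.158) or at 3 weeks of STZ (-0.63, 0.556). Over all genes, calls came to 313, 87 and 108 with that covariate, against 685, 3934 and 1058 without. The tubule markers of the groups did not overlap in these 3 comparisons. Covariate and group can thus hardly be separated, and these fits do not decide what part the tubule RNA has.

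Mme (chromosome 3, 63241537 to 63386030, plus strand) was called at 6 months in the type 2 model, where it stood at 88.65, 122.8 and 54.61 CPM in eNOS-/- db/db libraries, against 212.4, 235.9, 244.6 and 236.2 CPM in eNOS-/- libraries. The groups were apart, with a log2 fold change of -1.38 ± 0.27 (SE; edgeR adjusted p = 0.00223). At 3 months it averaged 223.7 ± 66.9 CPM in diabetic and 227.8 ± 49.9 CPM in control libraries (SD, n = 5 each), and the 95% interval of the log2 fold change was -0.48 to 0.43. The difference at 6 months minus that at 3 months was -1.35 (interval -2.08 to -0.63), with an adjusted p of 0.118 by edgeR and 0.0162 by DESeq2. Leaving out the second 6-month diabetic library brought edgeR's adjusted p to 0.0122, in a fit that called 1911 genes in all, against 0 with every library. In the other 16 fits that left out 1 library this difference was not called, with an edgeR adjusted p of up to 0.275. In the type 1 model Mme was not called, with intervals of -1.12 to -0.02 at 3 weeks and -0.88 to 0.17 at 24 weeks. Mme followed the podocyte markers (correlation 0.875) and Npr3 (0.902). With the podocyte marker mean as a covariate its 6-month log2 fold change was -0.24 (edgeR adjusted p = 0.745). The podocyte markers of those groups did not overlap, so covariate and group can hardly be separated there.

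The promoters of Ace and Agt are given beside each other, since Ace fell and Agt rose in 2 of the same comparisons, at 6 months and at 3 weeks of STZ.
Ace: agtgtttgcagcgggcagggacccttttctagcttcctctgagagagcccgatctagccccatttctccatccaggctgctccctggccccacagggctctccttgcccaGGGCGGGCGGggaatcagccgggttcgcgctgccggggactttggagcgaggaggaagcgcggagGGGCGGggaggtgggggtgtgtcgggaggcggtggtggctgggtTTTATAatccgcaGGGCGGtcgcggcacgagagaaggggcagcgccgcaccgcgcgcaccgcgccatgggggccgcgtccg
Agt: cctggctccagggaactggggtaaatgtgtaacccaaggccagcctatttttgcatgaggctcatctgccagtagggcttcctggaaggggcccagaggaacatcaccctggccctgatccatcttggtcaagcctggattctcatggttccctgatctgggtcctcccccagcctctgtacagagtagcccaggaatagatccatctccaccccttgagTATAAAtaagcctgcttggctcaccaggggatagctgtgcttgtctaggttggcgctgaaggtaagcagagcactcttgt
The Ace stretch (chr11:105967698-105967997, plus strand) precedes the upstream one of its RefSeq starts. It held 4 GC boxes, of which the first pair overlap, and the letters of a TATA box read on the opposite strand at position -31 from the start. The Agt promoter (chr8:124569657-124569956, minus strand) held a TATA box at position -30 on its own strand and none of the other motifs.

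Agt (chromosome 8, 124556534 to 124569706, minus strand), the substrate of renin, was the gene of the 9 that rose. It stood at 34.33, 21.47 and 30.35 CPM in 6-month eNOS-/- db/db libraries, against 11.21, 13.11, 14.37 and 11.63 CPM in eNOS-/- libraries. After 3 weeks of STZ it stood at 55.42, 45.24, 50.0, 54.31 and 34.13 CPM, against 13.35, 24.66, 7.933 and 7.334 CPM in untreated mice. Groups were apart in both comparisons. The log2 fold change was 1.20 ± 0.24 at 6 months (SE; edgeR adjusted p = 0.00204) and 1.82 ± 0.44 at 3 weeks (0.0157).

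At 24 weeks of STZ Agt stood at 34.99, 79.69, 68.88, 11.98 and 37.17 CPM, against 13.37, 9.919, 12.99, 24.3 and 14.45 CPM in untreated mice. The fourth diabetic library lay within the control range and the other 4 lay above it. The log2 fold change was 1.65 (95% interval 0.81 to 2.49), with an adjusted p of 0.0552 by edgeR and 0.00324 by DESeq2. Without the fourth diabetic library edgeR's adjusted p was 0.0044, and without the fourth control library, the highest control, 0.0398. In the other 8 fits that left out 1 library Agt was not called, with an edgeR adjusted p of up to 0.163. In the type 2 model at 3 months Agt averaged 17.65 ± 4.27 CPM in diabetic and 12.44 ± 2.81 CPM in control libraries (SD, n = 5 each), with overlapping ranges (log2 fold change 0.51, interval 0.10 to 0.92, edgeR adjusted p = 0.177). The early rise was 1.34 smaller on the log2 scale in the type 2 than in the type 1 model (difference -1.34, interval -2.31 to -0.38), which was not called (edgeR adjusted p = 0.179).

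The level of Agt ran against both marker lists over the 36 libraries, with a correlation of -0.581 with podocyte markers and -0.616 with proximal tubule markers. Its 6-month log2 fold change was 1.43 with the tubule markers as a covariate (edgeR adjusted p = 0.0834) and 0.73 with the podocyte markers (0.385). In mice at 3 weeks of STZ it was 2.45 (0.124) and 1.73 (0.0128), and at 24 weeks 2.03 (0.127) and 1.205 (0.184). The tubule markers of the groups did not overlap at 6 months or at 3 weeks, nor did the podocyte markers at 6 months. At 24 weeks the summed tubule markers overlapped, but their mean log2 CPM did not (at most 8.21 with STZ, at least 8.433 without). Covariate and group can hardly be separated in those fits. Macrophage and parietal epithelial markers rose where Agt did. Of 12 macrophage markers 7 rose at 6 months and 6 at 3 weeks, and of 7 parietal markers 6 and 3; their part in the Agt result was not tested. Summed macrophage markers were 180.6 to 317.4 CPM in 6-month diabetic and 82.54 to 125.2 CPM in control libraries, and summed parietal markers were 290.7 to 525.0 and 152.2 to 208.1 CPM. In mice given STZ for 3 weeks the macrophage sums were 115.5 to 324.7 CPM, against 50.59 to 121.5 CPM without, and the parietal sums 261.7 to 449.4 CPM, against 158.0 to 241.2 CPM.

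Ren1 (chromosome 1, 133350510 to 133360325, plus strand), which is made by the juxtaglomerular cells of the afferent arteriole, was called in none of the 4 comparisons. In the 3-week STZ group it stood at 35.84, 30.28, 48.59, 30.57 and 30.61 CPM, against 16.21, 24.73, 29.14 and 14.99 CPM in untreated mice. Every diabetic library lay above every control library, but the log2 fold change of 0.71 (95% interval 0.07 to 1.36) had an edgeR adjusted p of 0.186. At 24 weeks it stood at 12.69 ± 6.17 CPM with STZ and 15.91 ± 4.90 CPM without (SD, n = 5 each; interval -0.93 to 0.28), and the later difference minus the earlier was -1.03 (interval -1.92 to -0.15, edgeR adjusted p = 0.670). In the type 2 model the intervals were -0.71 to 0.21 at 3 months and -1.07 to 0.06 at 6 months. Of 5 other juxtaglomerular markers, 0 were called at 3 weeks, where they summed to 143.9 to 245.7 CPM with STZ and 113.1 to 213.1 CPM without.

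Agtr1a (chromosome 13, 30336441 to 30382867, plus strand), the main angiotensin II receptor of the mouse kidney, was low in all groups and called in none. Its group means lay between 9.045 CPM in 6-month eNOS-/- db/db libraries and 14.31 CPM in untreated mice of the 24-week group. In the 6-month diabetic libraries it stood at 13.07, 10.89 and 3.175 CPM, against 8.541, 11.61, 11.62 and 11.97 CPM in controls. The third diabetic library was the low one, and the ranges overlapped. The 95% intervals of the log2 fold change were -0.79 to 0.37 at 3 months, -0.95 to 0.47 at 6 months, -0.84 to 0.36 at 3 weeks and -0.93 to 0.21 at 24 weeks. Like Ace, Agtr1a moved with proximal tubule markers (correlation 0.631).

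The corticoid receptors were the steadiest of the 9 genes. Nr3c1 (chromosome 18, 39410545 to 39491301, minus strand), the glucocorticoid receptor, had group means between 116.7 CPM at 24 weeks of STZ and 156.8 CPM in 6-month eNOS-/- mice. Nr3c2 (chromosome 8, 76899442 to 77245012, plus strand), the mineralocorticoid receptor, had group means between 23.38 CPM in 6-month eNOS-/- mice and 29.55 CPM in 3-month eNOS-/- db/db mice. The highest group mean was 1.34 times the lowest for Nr3c1 and 1.26 times for Nr3c2, compared with 1.58 for Agtr1a, 2.77 for Ren1, 3.10 for Mme and 3.73 to 4.39 for Npr3, Agt, Npr1 and Ace.

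Neither receptor was called in a comparison. For Nr3c1 the 95% intervals of the log2 fold change were -0.33 to 0.14 and -0.52 to 0.05 at 3 and 6 months in the type 2 model, and -0.31 to 0.35 and -0.50 to 0.12 at 3 and 24 weeks of STZ. For Nr3c2 they were -0.26 to 0.35, -0.05 to 0.69, -0.43 to 0.43 and -0.36 to 0.45. A change of 2-fold thus lay outside all 8 of these intervals.

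When the 8 TRAP groups were ordered by mean CPM, neighbours in the order overlapped in nearly all cases. They were apart for Ren1 between the 3-week STZ group (35.18 CPM), which led, and its untreated controls (21.27 CPM), and for Npr1 between the 3-month eNOS-/- db/db group (98.36 CPM) and the 6-month one (59.03 CPM), which came last. Agt was highest in the STZ groups of 3 and 24 weeks (47.82 and 46.54 CPM) and lowest in the 3-month eNOS-/- group (12.44 CPM). Npr3, Mme, Npr1, Ace and Agtr1a were all lowest in the 6-month eNOS-/- db/db group. The highest group was that of 3-month eNOS-/- mice for Npr3 and Npr1, and that of 3-week untreated mice for Ace and Mme.

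Whether the diabetic differences changed with age or between the models was tested directly. Of the 9 genes, edgeR called 0 in each of these 4 tests, and 3, 2, 3 and 3 had an unadjusted p under 0.05, where 18.9%, 6.71%, 14.0% and 15.1% of all genes did. The order is 6 minus 3 months, 24 minus 3 weeks, and the type 2 minus the type 1 model at the early and late time. Over all genes 0, 0, 0.940% and 0.438% were called, of which 0.567% and 0.259% of all genes were lower in the last 2 tests. DESeq2 called 1 of the 9 in the first test, Mme, and none in the other 3. For Npr1 the type 2 minus type 1 difference was -1.05 early (95% interval -1.91 to -0.19, edgeR adjusted p = 0.239) and -1.31 late (-2.25 to -0.38, 0.158). For Ace it was -0.05 early (interval -0.77 to 0.67) and -1.21 late (-1.99 to -0.42, edgeR adjusted p = 0.121). A fall past the threshold in one model and not in the other was therefore not shown to differ between them for these genes.

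The genes nearest to each of the 9, by correlation of log2 CPM over the 36 libraries with each model's mean removed, are given as a description. Npr3 was nearest to Mcc (0.970), Plce1 (0.967) and Sept11 (0.967), Npr1 to Itga3 (0.941), Astn2 (0.921) and Ptpro (0.920), and Mme to Ppfibp2 (0.929), Dpp4 (0.924) and Col4a3 (0.919). Plce1 and Ptpro are among the 15 podocyte markers, and Col4a3 encodes a collagen chain of the filter's basement membrane. Ace was nearest to Mpv17l (0.904), Csad (0.890) and Slc22a7 (0.884), and Agtr1a to Slc5a2 (0.774), Slc26a1 (0.755) and BC025446 (0.743). Slc5a2 encodes the proximal tubule glucose transporter SGLT2, and Slc22a7 an organic anion transporter. Agt was nearest to Lgals3bp (0.878), C530008M17Rik (0.872) and Acsf2 (0.864), and Ren1 to Smc1a (0.799), Mga (0.788) and Snrnp200 (0.788). The corticoid receptors had no close neighbour: the first was Pank3 at 0.647 for Nr3c1 and Naca at 0.709 for Nr3c2.

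Of 21 other listed genes of the renin-angiotensin system, 16 were tested. In the type 2 model 1 of the 16 fell at 3 months (3.99% of all genes called), Arrb1 (beta-arrestin of the angiotensin receptor and others), at 256.4 ± 28.4 CPM in diabetic and 404.0 ± 53.4 CPM in control libraries (SD, n = 5 each; log2 fold change -0.66, edgeR adjusted p = 0.00924). At 6 months 3 of 16 fell and 0 rose, where 11.7% of all genes fell and 11.2% rose. Enpep, the aminopeptidase that trims angiotensin II to angiotensin III, averaged 328.9 ± 206 CPM in diabetic (SD, n = 3) and 1289 ± 170 CPM in control libraries (n = 4; log2 fold change -1.97, edgeR adjusted p = 0.00266). The others were the aminopeptidase Anpep (-0.81) and the endopeptidase Thop1 (-0.94). In that comparison 13 of 15 podocyte and 11 of 18 proximal tubule markers fell as well, and their part in these 3 falls was not tested. At 3 weeks of STZ 2 of 16 rose (3.78% of all genes), the angiotensin-cleaving neurolysin Nln (0.69) and the kininogen Kng2 (0.98). At 24 weeks 0 were called, with 2 of 16 at an unadjusted p under 0.05, beside 10.7% of all genes. The median log2 fold change of the list was 0.06, -0.07, 0.33 and 0.11 in the 4 comparisons. Agtr1b, the second type 1 receptor gene of the mouse, had 0 counts in all TRAP libraries but 1 of the 3-month eNOS-/- db/db group, with 6.

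Of 18 natriuretic and cGMP genes, 13 were tested. At 3 months 0 were called by edgeR, with 4 at an unadjusted p under 0.05 (16.2% of all genes). At 6 months in the type 2 model 3 of 13 rose and 2 fell, where 11.2% of all genes rose and 11.7% fell. Gucy1a3, a subunit of the nitric oxide-driven guanylate cyclase, averaged 33.25 ± 6.34 CPM in diabetic (SD, n = 3) and 9.883 ± 2.69 CPM in control libraries (n = 4; log2 fold change 1.76, edgeR adjusted p = 0.00193). The cGMP-degrading phosphodiesterases Pde5a (1.25, adjusted p = 0.0057) and Pde2a (1.23, 0.0262) rose too. Corin, the protease that activates atrial natriuretic peptide, fell (-3.40, edgeR adjusted p = 0.0104) from a low level, at 0.2293 ± 0.352 CPM in diabetic (SD, n = 3) and 1.742 ± 0.745 CPM in control libraries (n = 4). At 3 weeks of STZ Gucy1a3 (1.68) and its partner subunit Gucy1b3 (2.02) rose, 2 of 13 beside 3.78% of all genes. At 24 weeks 0 were called, with 1 of 13 at an unadjusted p under 0.05, beside 10.7% of all genes. The list's medians were 0.30, 0.37, 0.29 and 0.24. Of 10 mesangial and smooth muscle markers, 5 rose at 6 months, beside 11.2% of all genes. Their sums were 311.5 to 795.3 CPM in diabetic and 177.3 to 227.4 CPM in control libraries. At 3 weeks 2 of 10 rose, beside 3.78% of all genes. The sums overlapped there, at 216.2 to 611.6 CPM with STZ and 207.5 to 442.3 CPM without. At 3 months 2 of 10 markers rose too (2.03% of all genes), where 0 of the 13 genes were called. The marker sums at 3 months were 226.7 to 821.3 CPM in diabetic and 156.9 to 199.8 CPM in control libraries. The part of these markers in the result was not tested.

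All 25 listed cofactors and targets of the corticoid receptors were tested. Sgk1, the serum and glucocorticoid-regulated kinase that mineralocorticoids also induce, rose in 3 of the 4 comparisons while the receptors were not called. It averaged 107.2 ± 40.5 CPM in 3-month eNOS-/- db/db and 41.98 ± 6.81 CPM in eNOS-/- libraries (SD, n = 5 each; log2 fold change 1.36, edgeR adjusted p = 0.000517). At 6 months it averaged 91.4 ± 16.7 CPM (SD, n = 3) and 38.3 ± 4.52 CPM (n = 4), with a log2 fold change of 1.26 (edgeR adjusted p = 0.00201). At 24 weeks of STZ it averaged 140.0 ± 22.6 CPM, against 64.87 ± 25.6 CPM without (SD, n = 5 each; 1.12, edgeR adjusted p = 0.0296). At 3 weeks it averaged 181.0 ± 17.3 CPM with STZ (SD, n = 5) and 150.0 ± 56.3 CPM without (n = 4), and was not called.

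At 6 months in the type 2 model 2 of the 25 corticoid genes rose, Sgk1 being 1 of them, and 9 fell, where 11.2% of all genes rose and 11.7% fell. The median log2 fold change of the list was -0.38. Among the 9 were the receptor chaperones Fkbp4 (-1.26, edgeR adjusted p = 0.0026), Ptges3 (-0.86, 0.00261) and Hsp90aa1 (-1.56, 0.00354). Podocyte and proximal tubule markers fell in that comparison too, and their part in these falls was not tested. At 3 months in that model Sgk1 was the single call among the 25 (3.99% of all genes). At 3 weeks of STZ the sodium channel subunit Scnn1b rose (1.59, edgeR adjusted p = 0.0077), and the glucocorticoid-induced Errfi1 (-1.30, 0.0296) and Klf9 (-1.002, 0.0375) fell, beside 3.78% of all genes higher and 2.72% lower. The medians of the list at 3 months, 3 weeks and 24 weeks were 0.05, -0.23 and 0.11. Tubule cells also express Scnn1b: of 10 loop, distal and collecting duct markers 1 rose at 3 weeks, and their sums were 1578 to 2818 CPM with STZ and 1305 to 2730 CPM without. The part of these markers in the Scnn1b result was not tested.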

How the data were processed

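Podocyte TRAP RNA and total kidney RNA were sequenced. The authors deposited, for 37 libraries, whole-number counts per gene and the FPKM made from them; FPKM equalled count over length and library total within 0.001 for 100% of values. Tools listed in the submitters' processing notes are FastQC, cutadapt 1.16, STAR and featureCounts 1.15.2, with mm9 as the build, but 99.981% of 31871 matched genes overlapped their place on GRCm38 and 82.15% had its exact coordinates, so positions are given on GRCm38. The sources used here do not say whether counting used strand: reads of Npr1, Ace and Nr3c2 and of their antisense neighbours cannot be told apart.

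Counts were fitted with edgeR 4.0.16 in R 4.3.3 (TMM, its default filter on low counts, robust quasi-likelihood F test, Benjamini-Hochberg 0.05), in 1 fit of 17 type 2 libraries, 1 of 19 type 1 libraries, and 1 of 36 TRAP libraries (18511 genes) between models. DESeq2 1.42.0, other filters, size factors, sets of libraries, a replicate block and marker covariates were alternatives. Fits were tested on simulated data for the 4 diabetic comparisons. They called 26.1% to 47.7% of true changes of 1 on the log2 scale, and 61.6% to 70.3% of those of 2. Each size of change was given to 82 to 111 genes of any level, among 15665 to 16733 tested. Fewer genes were thus changed than were called at 6 months and at 3 weeks of STZ, and the rates need not hold for the 9 genes. A gene not called may thus still have changed. No label says that replicates are separate animals, and p-values cover only the spread between libraries, which may be technical. Intervals cover counting error only for kidney, and are edgeR's at 95% elsewhere. Named genes are the 9, up to 4 called genes of lowest p per list and comparison, and the 3 nearest genes by correlation. Other markers and Gucy1a3 were found by symbol or synonym, and Ctsg was not analysed here; 27 symbols stored as dates were matched by identifier. The members and lists were chosen with earlier results of these data known. Figures were drawn with matplotlib 3.10.9.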

Additional observations from a re-analysis of the deposited data

Results flagged for a closer look

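Of 63 sets of 4 or 5 libraries, each 1 gene in 1 group, 2 held a library far from the others by Dixon's test, and chance flags about 1 in 20. Agtr1a stood at 8.541 CPM in the first library of 6-month eNOS-/- controls, with the nearest other library at 11.61 CPM. Nr3c2 stood at 22.31 CPM in the fourth library of mice at 3 weeks of STZ, with the nearest other at 27.84 CPM.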

How the results depend on the processing

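The 2 calls among the 9 genes at 3 months in the type 2 model (Ace and Npr1) remained under all alternatives run, although the genes called in all, 685, came to 1256 with DESeq2, 403 with the replicate block, 313 and 1354 with the tubule and the podocyte markers as a covariate, and 418 without diabetic libraries 4 and 5. At 6 months (3934 genes) they came to 2575 with the replicate block and 2326 with only the 2 groups fitted, and 5 of the 9 genes were called in both. With the tubule or the podocyte markers as a covariate, 87 and 131 genes were called, and 1 of the 9 each time (Npr1, and Ace). At 3 weeks of STZ (1058 genes) the counts were 1809 with DESeq2, 1636 with all 36 libraries, 599 with only the 2 groups, 1638 with the podocyte markers, and 108 with the tubule markers, where 0 of the 9 were called. At 24 weeks (146 genes) they were 446 with DESeq2, 271 with all 36 libraries, 82 with the replicate block, 346 with the podocyte and 21 with the tubule markers. Agt was the 1 gene called there with DESeq2, with all 36 libraries and with a minimum of 1 CPM. Of the tests between ages and models, 6 minus 3 months gave 582 genes with DESeq2 (1 of the 9, Mme) and 3 with no filter on low counts. The test of 24 minus 3 weeks gave 65 genes with DESeq2 and 1 with the replicate block. The type 2 minus type 1 tests (174 and 81 genes) gave 462 and 522 with DESeq2, 99 and 22 with no filter, and 3 in the late one with the replicate block. The cause of these shifts was not tested. Deviations of same-numbered libraries from their group means correlated at -0.082 to 0.163 and not every library was nearest to its own number, so the replicate numbers were not taken as pairs, and the block changed no call of the 9 genes.

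Leaving out 1 library at a time, genes called ranged from 404 to 737, 1932 to 5350, 611 to 1350 and 67 to 262 in the 4 diabetic comparisons, and from 0 to 1911, 0 to 3, 75 to 243 and 4 to 549 in the tests between ages and models. Of the 9, the calls were 2, 5 and 2 in every case for the first 3 comparisons, and 0 to 1 at 24 weeks. They were 0 to 2 for 6 minus 3 months (Mme and Npr3 without the second 6-month diabetic library), 0 to 1 for the early difference between models (Agt without the second 3-week control) and 0 in the other 2. The third 6-month diabetic library set the lowest count at that age, 1932.

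Directions turned for uncalled genes near 0, and for Npr3 at 6 months, 0.14 with the podocyte markers. With the tubule markers, Agtr1a turned to 0.35, 0.80, 0.82 and 0.34 in the 4 diabetic comparisons, Nr3c2 to -0.0753 at 3 months, -0.170 at 3 weeks and -0.0908 at 24 weeks, Mme to 0.13 at 3 months, Nr3c1 to -0.0397 at 3 weeks and Ace to 0.38 at 24 weeks. With the podocyte markers, Mme turned to 0.25 and Nr3c2 to -0.000639 at 3 months, Agtr1a to 0.34 at 6 months and Npr3 to 0.0203 at 24 weeks. Mme was at 0.24 at 3 months without diabetic libraries 4 and 5, and Nr3c2 at -0.00778 at 3 weeks with only the 2 groups. Leaving out 1 library gave ranges that cross 0 at 3 months for Mme (-0.13 to 0.12) and Nr3c2 (-0.0106 to 0.11), at 6 months for Agtr1a (-0.60 to 0.14), at 3 weeks for Agtr1a (-0.33 to 0.0590), Npr1 (-0.46 to 0.0382), Nr3c1 (-0.0267 to 0.12) and Nr3c2 (-0.16 to 0.22), and at 24 weeks for Nr3c2 (-0.0269 to 0.12). The fewest reads behind a value were those of Agtr1a in the third 6-month diabetic library, with 25 counts.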
